A study of Mus musculus with 7 samples.

Results

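The 10 genes described here encode enzymes, and 1 helper protein, of prostaglandin and leukotriene synthesis. They were chosen by symbol from 28666 genes in the deposited table, and all 10 were found. The rule used no expression value, but the choice was made with earlier results of these data known. They are Ptgs1, Ptgs2, Tbxas1, Ptges and Hpgds of the prostanoid arm, and Alox5, Alox5ap, Lta4h, Ltc4s and Alox15 of the lipoxygenase arm. RNA-seq was performed on flow-sorted bone marrow-derived dendritic cells (BMDCs), with 3 libraries of immature and 4 libraries of mature cells. The comparison asks how these enzymes differ between BMDCs that stayed immature and those that matured.

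Bone marrow of female C57BL/6 mice aged 6 to 8 weeks was cultured with GM-CSF and IL-4 for 7 days. Both groups were then grown in Transwell co-culture with MC38, a mouse colon carcinoma line, and the cells were sorted after 24 h. The agent was DON, a glutamine antagonist, used at 5 µM in the MC38 co-culture, and the study also names DMSO for the sorted cells. The labels of the libraries give only maturity and a replicate number, without naming a treatment, the sort markers or separate animals. The p-values therefore measure the spread between these libraries, which may be technical. BMDC cultures with GM-CSF hold macrophage-like as well as dendritic cells, which limits them as a model of a single cell type.

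Eicosanoids are short-lived lipid signals made from arachidonic acid, which phospholipases cut from membranes. Cyclooxygenases turn it into prostaglandin H2, which separate terminal synthases convert into prostaglandins or thromboxane. 5-lipoxygenase, helped by the membrane protein FLAP, turns it into leukotriene A4, from which hydrolysis gives leukotriene B4 and conjugation with glutathione gives the cysteinyl leukotrienes. In dendritic cells these lipids are known to act on migration and cytokine output.

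Total counts ran from 54846746 to 67973086 per library. The 8 maturation genes checked (Cd86, Cd80, Ccr7, Cd40, Cd83, Fscn1, Relb and Ccl22) were all higher in the mature libraries, with summed CPM (counts scaled to the effective library size) of 12670 to 15704 against 1331 to 1408. Since the sort may have used products of some of them, they are no independent check of the labels. Of 8 dendritic markers, Flt3, Zbtb46, Dpp4 and Batf3 rose, by 3.77, 2.05, 1.79 and 1.36 on the log2 scale, and none fell past both criteria. Flt3 went from 0.310 to 0.647 CPM to 4.83 to 7.34 CPM, while Cd74, at 6419 to 6846 and 7405 to 11458 CPM, did not pass, and Itgax passed the adjusted p but not the fold (-0.41). Macrophage markers fell in 9 of 10 cases, from a summed 1690 to 1728 CPM to 336 to 389, whereas Marco did not pass the test. Of 9 neutrophil markers in the table, Mmp8 and S100a8 fell and none rose, and their sum was 357 to 368 CPM in immature and 36.1 to 60.5 CPM in mature libraries, of which Mmp8 was nearly all, while S100a9 and Ly6g stayed under 0.5 CPM. B cell and T cell markers each summed to at most 0.879 CPM in any library. The NK cell marker listed, Ncr1, was not in the table, so NK cells were not checked. The 5 epithelial genes that MC38 cells could carry summed to 69.9 to 77.3 CPM in immature and 59.2 to 69.5 CPM in mature libraries. Cdh1 made up most of the epithelial sum, at 50.7 to 57.8 CPM in immature and 47.3 to 54.2 CPM in mature libraries. Epcam was called higher (2.24 on the log2 scale) at no more than 1.60 CPM, and Cdh1, Krt8, Krt18 and Krt19 did not pass. Mature replicate 1 stood apart from the other mature libraries on the first principal component (36.0 against 78.7 to 86.1), and the libraries also differed in 8 heart muscle genes, all called higher in mature cells. These summed to 704 to 829 CPM in mature replicates 2 to 4, against 26.9 CPM in mature replicate 1 and 4.91 to 5.52 CPM in the immature libraries. Mature replicate 3 stood apart through a trend with gene length, with a correlation of -0.382 across genes between its deviation from the group and gene length, against 0.179 to 0.278 in the other mature libraries. The counts of enzymes and pathway genes below are therefore also given without replicates 1 and 3, which keeps replicates 2 and 4 with their heart muscle transcripts. In replicate 1, where those were low, each of the 6 enzymes named next as past the criteria lay on the same side of the immature range as in the other mature libraries. That is 1 library, itself apart on the first principal component, and the part of the heart muscle transcripts in the result was not tested.

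In the mature libraries, 6 of the 10 enzymes differed by at least 1 on the log2 scale with an edgeR adjusted p under 0.05, the criteria used throughout. Of these, 5 were lower, namely Ptgs1, Tbxas1, Alox5ap, Alox15 and Lta4h, and 1 was higher, Ltc4s. Ptgs2, Ptges, Hpgds and Alox5 did not pass. Across all 17461 genes tested, 23.1% passed these criteria, with 13.2% higher and 9.95% lower in mature cells. All 10 enzymes passed the filter on low counts. Their median log2 fold change was -0.89, beside 0.05 over all genes tested. With mature replicates 1 and 3 left out together, the same 6 enzymes passed. For 7 of the 10 enzymes the CPM ranges of the groups were separate, as they were for 52.1% of all genes tested. In bulk RNA, fewer cells of a type and less RNA per cell cannot be told apart.

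**Figure D1:**
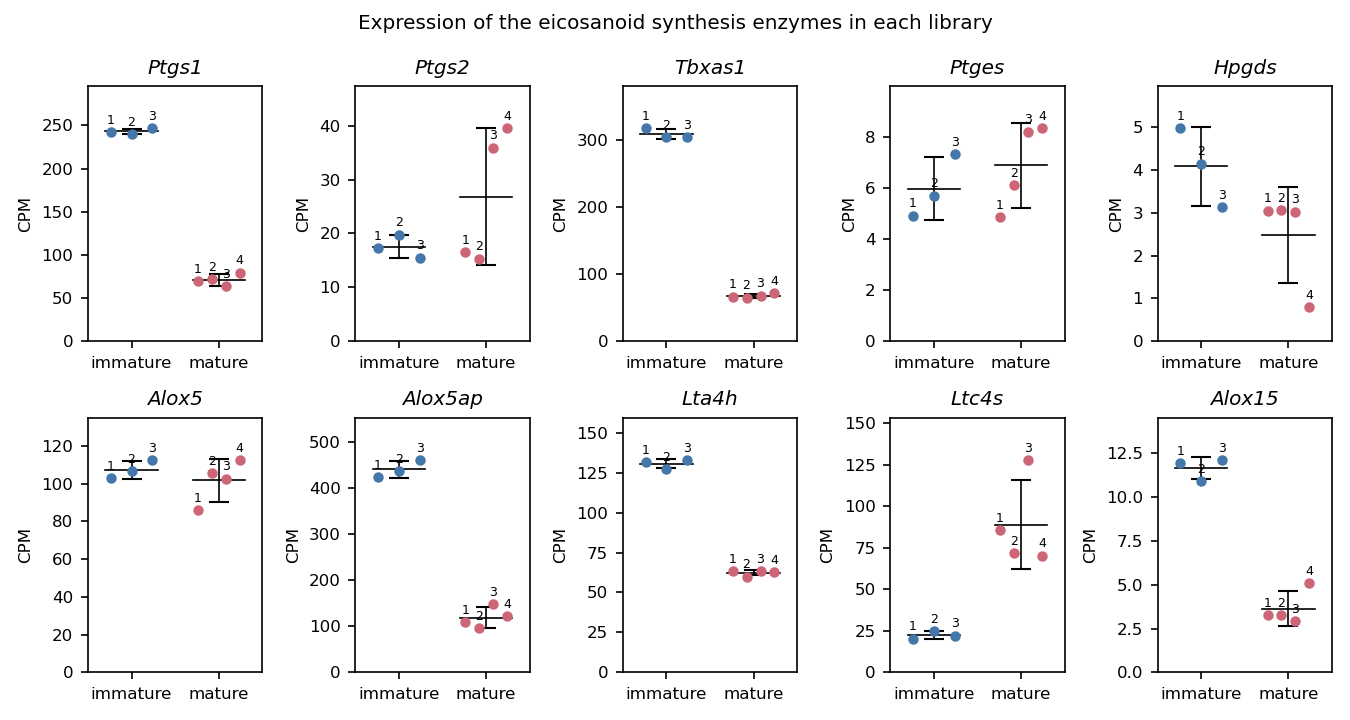
CPM of the 10 enzymes on linear axes from 0, with 1 numbered point per library, a line at the group mean and bars of 1 SD (3 immature and 4 mature libraries). Ptgs1, Tbxas1, Alox5ap, Lta4h and Alox15 sat lower in every mature library, Ltc4s sat higher in every mature library, and Ptgs2 was high in mature replicates 3 and 4 alone.

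Sequence before the start of 3 enzyme genes is shown because they behaved differently: Ptgs1 fell, Ptgs2 did not pass the test and Ltc4s was the enzyme that rose. The windows come from RefSeq on GRCm38.p6 (the build of all coordinates below), cover up to 250 bases before the RefSeq start and read 5′ to 3′ on the gene's strand. Capitals mark letters of motifs searched on both strands.

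Ptgs1, chr2:36230176-36230425, plus strand: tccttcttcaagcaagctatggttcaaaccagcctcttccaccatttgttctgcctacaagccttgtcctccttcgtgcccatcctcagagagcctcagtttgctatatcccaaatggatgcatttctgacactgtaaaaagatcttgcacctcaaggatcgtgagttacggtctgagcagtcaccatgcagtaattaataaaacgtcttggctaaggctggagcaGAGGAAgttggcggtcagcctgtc

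Ptgs2, chr1:150099781-150100030, plus strand: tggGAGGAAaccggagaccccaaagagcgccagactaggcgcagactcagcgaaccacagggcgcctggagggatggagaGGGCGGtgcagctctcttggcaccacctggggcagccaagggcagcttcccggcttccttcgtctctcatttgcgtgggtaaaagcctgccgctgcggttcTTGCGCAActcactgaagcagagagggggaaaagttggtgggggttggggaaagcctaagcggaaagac

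Ltc4s, chr11:50238617-50238782, minus strand: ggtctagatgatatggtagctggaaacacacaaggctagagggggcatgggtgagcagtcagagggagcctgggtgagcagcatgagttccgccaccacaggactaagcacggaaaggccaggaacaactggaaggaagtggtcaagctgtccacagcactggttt

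In Ptgs1 the capitals mark GAGGAA, a core that ETS factors are known to bind, 24 to 19 bases before the start. In Ptgs2 they mark GAGGAA, the GC box GGGCGG at 170 to 165 bases and the C/EBP-type TTNNGCAA at 69 to 62 bases before the start. In the Ltc4s window, from which 84 bases next to the start were left out as exonic in GENCODE, none of the 7 motifs searched was present. RefSeq windows were found for 8 of the 10 enzymes, not for Alox5ap or Alox15.

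GAGGAA was in 7 of these 8 windows, all but that of Ltc4s, and in 23.3% of 32851 windows of the same length. GGGCGG was in those of Ptgs2, Ptges and Alox5 (32.7% of all windows), and TTNNGCAA in those of Ptgs2 and Hpgds (9.56%). Tbxas1 held the AP-1 site TGANTCA (6.75%) and TATAAA (12.4%). TGACGT (6.47%) and CACGTG (6.02%) were in none of the 8. The motifs were chosen after earlier results and the sequences had been seen, and a match describes letters and not binding.

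Ptgs1 (ENSMUSG00000047250, chromosome 2, 36230426 to 36252272, plus strand) encodes the constitutive cyclooxygenase COX-1. It stood at 242, 240 and 246 CPM in immature replicates 1 to 3 and at 69.3, 71.5, 63.3 and 79.3 in mature replicates 1 to 4. The groups were far apart, and the immature libraries lay within a few CPM of each other. Ptgs1 was 3.43-fold lower in mature cells, with a log2 fold change of -1.78 ± 0.09 (SE) and an edgeR adjusted p of 1.1e-06.

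Ptgs2 (ENSMUSG00000032487, chromosome 1, 150100031 to 150108227, plus strand) encodes COX-2, the inducible cyclooxygenase. Its CPM was 17.3, 19.8 and 15.5 in immature cells and 16.5, 15.3, 36.0 and 39.5 in mature cells. Mature replicates 1 and 2 lay at the immature level and replicates 3 and 4 above it, so the groups overlapped. The log2 fold change of 0.62 ± 0.34 (SE) did not pass (edgeR adjusted p = 0.178), and its 95% interval ran from -0.17 to 1.40, which leaves room for a change of more than 2-fold.

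The ratio of the cyclooxygenases was compared per length, as FPKM (fragments per kilobase of transcript, scaled to library size). Ptgs2 to Ptgs1 was 0.0621, 0.0715 and 0.0550 in immature libraries and 0.207, 0.185, 0.486 and 0.426 in mature ones. No mature library fell within the immature range, and Ptgs1 stayed the higher of the pair in all 7 libraries. The mean log2 ratio was 2.26 higher in mature cells (two-sided exact permutation test, p = 0.0571, adjusted over 4 ratios 0.0762). With 35 ways to label the libraries, 0.0571 is the smallest p this form of the test can give, because it doubles the smaller tail. No ratio here could therefore pass 0.05 by this test.

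Tbxas1 (ENSMUSG00000029925, chromosome 6, 38875404 to 39084585, plus strand) encodes thromboxane A synthase. It stood at 317, 304 and 304 CPM in immature and 66.1, 64.5, 67.5 and 71.3 CPM in mature libraries. These were the tightest groups relative to their distance, and Tbxas1 had the largest fall of the 10 enzymes. It was 4.58-fold lower in mature cells, with a log2 fold change of -2.19 ± 0.07 (SE) and an edgeR adjusted p of 2.5e-07.

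Platelets are known for COX-1 and thromboxane synthase, so their markers are set beside Ptgs1 and Tbxas1. The 5 markers summed to 89.3 to 109 CPM in immature and 18.0 to 40.4 CPM in mature libraries, with Pf4 and Ppbp lower and the other three not past the test or not tested. Pf4 made up most of the sum. Itga2b stood at 1.12 to 2.32 CPM in immature and 2.06 to 3.56 CPM in mature libraries, Gp1ba at 0.155 to 0.755 and 0.492 to 1.24 CPM, and Gp9 at no more than 0.0909 CPM in any library. The macrophage markers fell with these enzymes as given above, and their part in the result was not tested.

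Ptges (ENSMUSG00000050737, chromosome 2, 30889471 to 30903297, minus strand) encodes the inducible prostaglandin E synthase of membranes. Its CPM was 4.91, 5.70 and 7.33 in immature and 4.87, 6.12, 8.21 and 8.33 in mature cells. The ranges overlapped almost wholly. The log2 fold change was 0.20 ± 0.23 (SE; edgeR adjusted p = 0.516), with a 95% interval from -0.33 to 0.73.

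Hpgds (ENSMUSG00000029919, chromosome 6, 65117293 to 65144908, minus strand) encodes the haematopoietic prostaglandin D synthase. It was low throughout, at 4.98, 4.15 and 3.13 CPM in immature and 3.05, 3.07, 3.03 and 0.784 CPM in mature cells. The groups did not overlap in CPM, although only narrowly, and they overlapped in FPKM. The log2 fold change of -0.72 ± 0.43 (SE) did not pass (edgeR adjusted p = 0.206, 95% interval -1.70 to 0.26), and without mature replicate 4 it was -0.41. The ratio of Ptges to Hpgds overlapped between the groups (1.54 to 3.31 in immature and 2.35 to 10.1 in mature libraries), with a log2 difference of 0.87 (exact permutation p = 0.229).

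Alox5 (ENSMUSG00000025701, chromosome 6, 116410077 to 116461178, minus strand) encodes 5-lipoxygenase. It stood at 103, 107 and 112 CPM in immature and 86.1, 105, 103 and 113 CPM in mature libraries. The groups overlapped, with mature replicate 1 lowest. The log2 fold change was -0.08 ± 0.10 (SE; edgeR adjusted p = 0.559), and its 95% interval of -0.31 to 0.15 lay wholly inside the fold criterion. The sign of this difference turned under upper-quartile normalization, under limma on FPKM and without mature replicates 1 and 3.

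Alox5ap (ENSMUSG00000060063, chromosome 5, 149264767 to 149288153, plus strand) encodes FLAP, which presents arachidonic acid to 5-lipoxygenase. It stood at 423, 437 and 461 CPM in immature and 109, 95.5, 148 and 122 CPM in mature cells. Every mature library lay far below every immature one. Alox5ap was 3.71-fold lower in mature cells, with a log2 fold change of -1.89 ± 0.14 (SE) and an edgeR adjusted p of 1.0e-05.

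The FPKM ratio of Alox5ap to Alox5 was 11.8 in each immature library and 3.64, 2.61, 4.17 and 3.14 in mature replicates 1 to 4. The immature libraries differed by less than 1% of the ratio. The mean log2 ratio was 3.56 in immature and 1.74 in mature cells, a difference of -1.82 (exact permutation p = 0.0571, adjusted 0.0762), with no overlap. Thus FLAP and 5-lipoxygenase transcripts, which serve the same step, differed unequally between the groups.

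Lta4h (ENSMUSG00000015889, chromosome 10, 93453411 to 93484874, plus strand) encodes leukotriene A4 hydrolase, the enzyme that makes leukotriene B4. It stood at 131, 127 and 133 CPM in immature and 63.5, 59.9, 63.5 and 62.9 CPM in mature cells. The groups were well separated and each was tight. Lta4h was 2.09-fold lower, with a log2 fold change of -1.06 ± 0.07 (SE) and an edgeR adjusted p of 4.1e-06. It lay close to the fold criterion, and under upper-quartile normalization (-0.95) and limma (-0.89 and -0.95) it passed the adjusted p but not the fold.

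Ltc4s (ENSMUSG00000020377, chromosome 11, 50236461 to 50238616, minus strand) encodes leukotriene C4 synthase, which makes the parent of the cysteinyl leukotrienes. Its CPM was 20.2, 24.8 and 22.1 in immature and 85.5, 71.9, 128 and 70.2 in mature cells. All mature libraries lay above all immature ones, with mature replicate 3 the highest. Ltc4s was 3.97-fold higher, with a log2 fold change of 1.99 ± 0.22 (SE) and an edgeR adjusted p of 1.1e-04. Without mature replicates 1 and 3 the log2 fold change was 1.69, and with offsets for the trend on gene length it was 1.79.

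The FPKM ratio of Lta4h to Ltc4s was 1.08, 0.855 and 1.00 in immature libraries and 0.124, 0.140, 0.0834 and 0.150 in mature ones. The transcripts were near parity in immature cells, while Ltc4s exceeded Lta4h in each mature library. The log2 ratio differed by -3.004 (exact permutation p = 0.0571, adjusted 0.0762), the widest difference of the 4 ratios.

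Mast cells and basophils are known for leukotriene C4 synthase, and their markers are set beside Ltc4s. Of the 11 of 12 markers in the table, Kit and Hdc rose and none fell, and the sum was 8.34 to 9.62 CPM in immature against 38.6 to 48.9 in mature libraries. Kit made up most of it, at 4.63 to 6.36 and 29.7 to 41.6 CPM. Hdc stood at 0.701 to 1.36 and 1.30 to 4.40 CPM, and Gata2, at 1.18 to 1.31 and 1.94 to 2.61 CPM, passed the adjusted p but not the fold (0.89, edgeR adjusted p = 0.0099). Cpa3 and Ms4a2 reached at most 0.710 and 0.341 CPM in any library, and neither passed the test. The part of these cells in the result was not tested.

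Alox15 (ENSMUSG00000018924, chromosome 11, 70344152 to 70352031, minus strand) encodes the 12/15-lipoxygenase, known in eosinophils and resident macrophages. Its CPM was 11.9, 10.9 and 12.1 in immature and 3.26, 3.27, 2.91 and 5.09 in mature cells. The groups did not overlap, and mature replicate 4 was the highest of its group. Alox15 was 3.20-fold lower, with a log2 fold change of -1.68 ± 0.20 (SE) and an edgeR adjusted p of 1.9e-04. Of 6 eosinophil markers, Epx and Prg3 were at 0 counts in all 7 libraries, Siglecf fell (76.5 to 90.9 against 12.5 to 16.4 CPM) and Il5ra rose at under 0.5 CPM, with a summed level of 76.9 to 91.4 CPM in immature and 13.6 to 16.8 CPM in mature cells. Siglecf, which is also known in some macrophages, was nearly all of that sum.

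Levels per length ordered the enzymes differently in the groups. In immature cells Alox5ap was highest, at 272 ± 7.20 FPKM (SD, n = 3), followed by Ptgs1 at 55.0, Tbxas1 at 29.8, Alox5 at 23.0, Ltc4s at 19.4, Lta4h at 18.8, Alox15 at 4.17, Ptgs2 at 3.36, Ptges at 1.33 and Hpgds at 0.553. Of the neighbours in this order, only Ltc4s and Lta4h had overlapping ranges. In mature cells Ltc4s came first, at 82.1 ± 20.5 FPKM (SD, n = 4), with Alox5ap at 78.7 and overlapping it.

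After these came Alox5 at 23.4, Ptgs1 at 17.3, Lta4h at 9.68, Tbxas1 at 7.00, Ptgs2 at 5.48, Ptges at 1.65, Alox15 at 1.40 and Hpgds at 0.360 FPKM. Tbxas1 overlapped Ptgs2, and Ptges overlapped Alox15. By group mean, Ltc4s moved from rank 5 to rank 1, Alox5 from 4 to 3 and Tbxas1 from 3 to 6. The mature mean of Ltc4s includes 111 FPKM in replicate 3, the library with the gene length trend. Ltc4s lay above Alox5ap in mature replicates 1 to 3 and below it in replicate 4 (66.0 against 82.3 FPKM). The first rank of Ltc4s over Alox5ap is therefore not settled. Alox5ap lay above 99.2% of the tested genes in immature and 96.7% in mature cells by mean FPKM, and Hpgds above 30.6% and 21.9%.

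**Figure D2:**
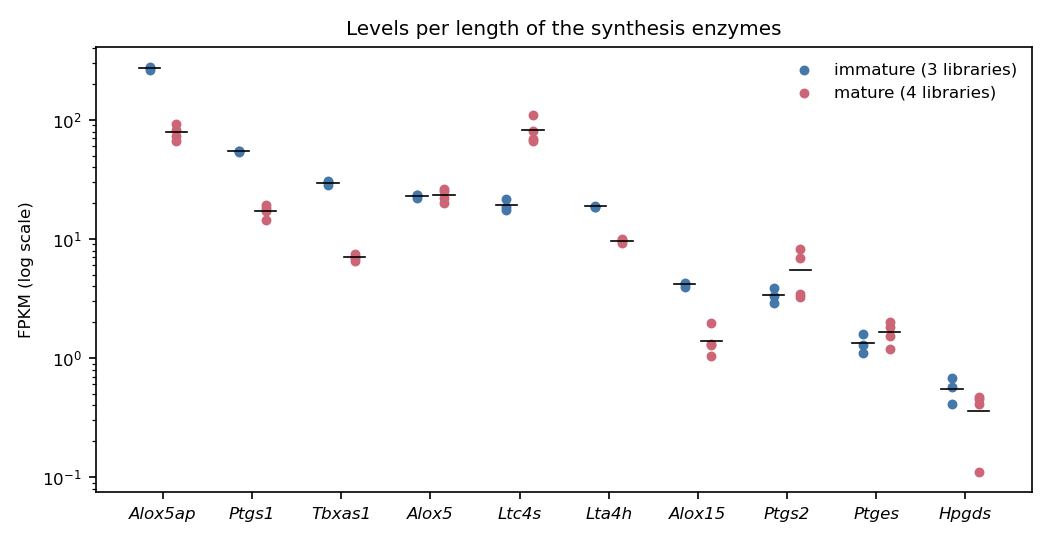
FPKM of the 10 enzymes on a log axis, ordered by the immature mean, with 1 point per library and a line at the group mean. Ltc4s rose to the level of Alox5ap in mature libraries, while Alox5 lay at the same height in both groups.

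**Figure D3:**
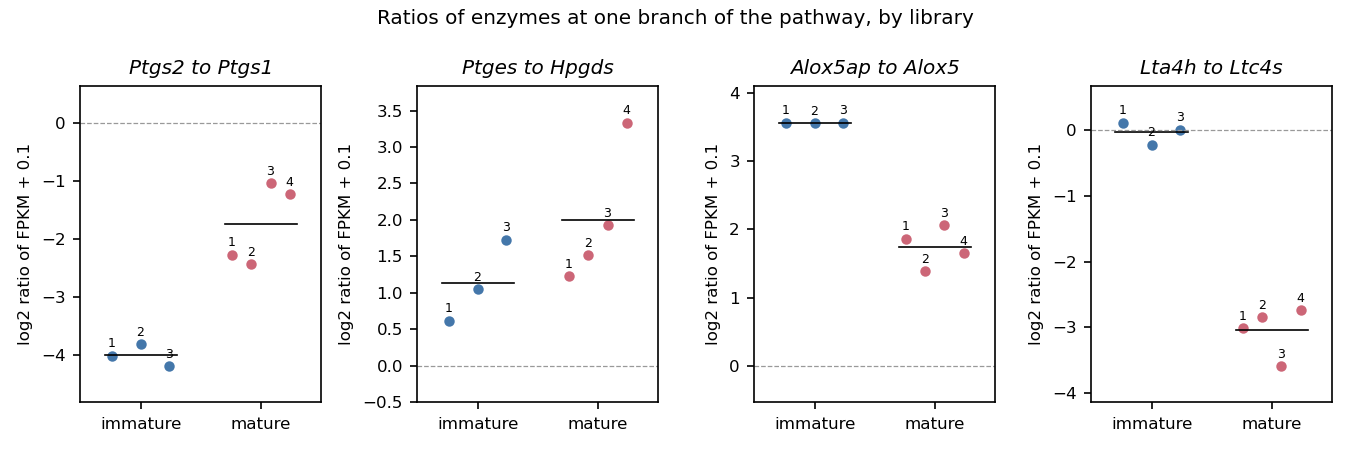
Log2 FPKM ratios (pseudocount 0.1) for 4 pairs of enzymes, with 1 numbered point per library, a line at the group mean and a dashed line at equal levels. Immature and mature libraries were apart for 3 pairs and overlapped for Ptges to Hpgds.

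Some of the enzyme genes overlap others on the opposite strand, and the strand setting of the counting is not given in the sources used here. Ltc4s shares 268 of 1014 exon bases with Gm26542 (1.81 to 8.06 CPM), and Alox5ap shares 189 of 1420 with Gm19719 (0.567 to 5.16 CPM). Both partners were counted far below the enzyme. Ptgs1 and Tbxas1 share 148 and 144 exon bases with Gm43621 and Gm42962, at no more than 2.45 and 0.596 CPM.

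The enzymes act between arachidonate release and the receptors, and a fixed list of 77 other genes of this pathway was read beside them. Of these, 69 were in the table and 54 were tested, and 15 were too low. In mature cells 5 were higher and 19 lower, which is 44.4% of those tested beside 23.1% of all genes. The median log2 fold change of the 54 was -0.72, and the same with 2 genes that were at 0 in a group set at their bound. Another 8 passed the adjusted p but not the fold, as did 4016 of all 17461 genes tested. At any fold, 32 of the 54 passed the adjusted p, beside 46.1% of all genes. Without mature replicates 1 and 3, 26 passed, 23 of them shared with the 24.

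**Figure D4:**
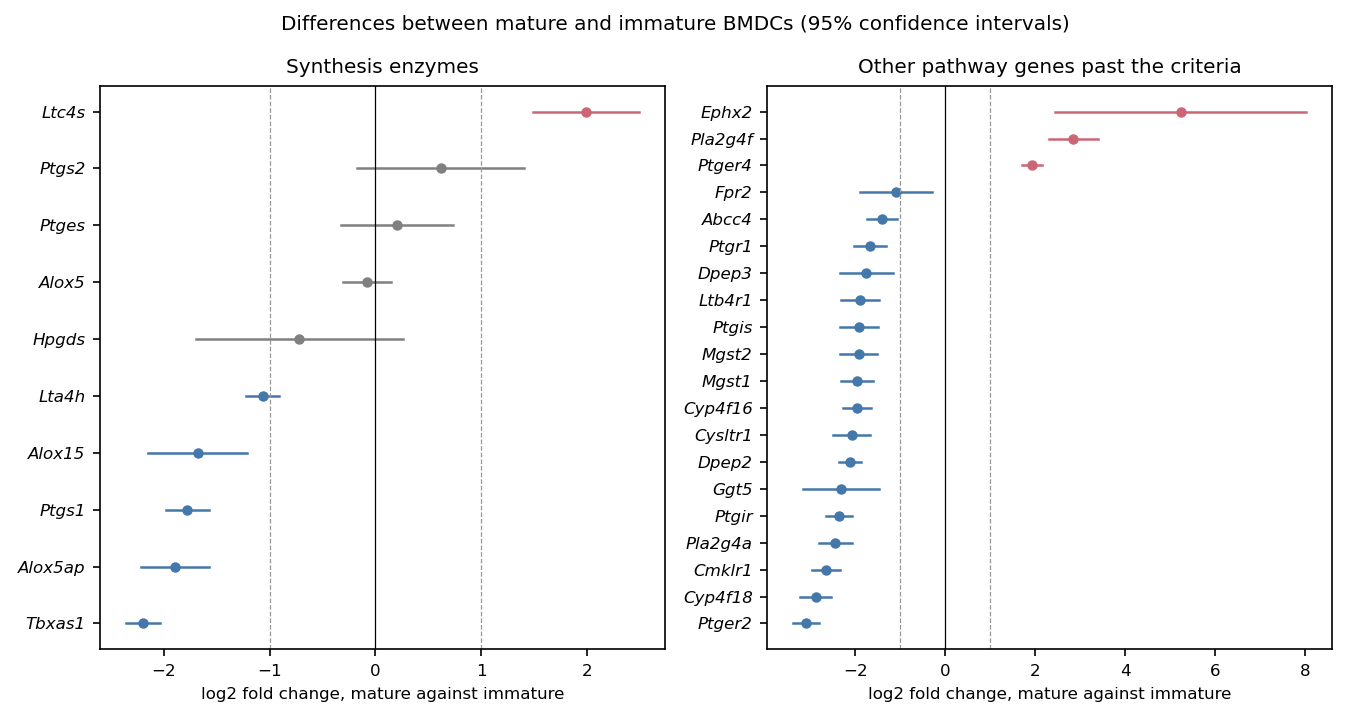
Log2 fold changes (mature against immature) with 95% confidence intervals for the 10 enzymes and for 20 other pathway genes named by rule; dashed lines mark the fold criterion, and grey marks enzymes that did not pass. Among the enzymes Ltc4s alone lay above 1, and of the other genes Ephx2, Pla2g4f and Ptger4 lay on the higher side.

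Of the phospholipase A2 genes listed for the step upstream of the enzymes, 3 of 11 tested passed, a share of 27.3% that is near the 23.1% of all genes. Not every listed phospholipase need release arachidonate. Pla2g4a, the cytosolic phospholipase A2 that supplies arachidonate to both arms, stood at 62.9, 59.1 and 63.9 CPM in immature and 13.0, 11.2, 8.17 and 13.3 CPM in mature cells. It fell in every mature library, with a log2 fold change of -2.44 ± 0.16 (SE; edgeR adjusted p = 5.4e-06). Pla2g4f, a related phospholipase, rose from 0.403 to 0.575 CPM to 3.31 to 4.08 CPM, with a log2 fold change of 2.85 ± 0.24 (edgeR adjusted p = 1.9e-05), and Pla2g7 fell.

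Of 10 other genes of prostanoid synthesis, 2 passed (20%, beside 23.1% of all genes). Ptgis, the prostacyclin synthase, fell from 4.84 to 1.28 CPM on average, with a log2 fold change of -1.92 ± 0.19 (edgeR adjusted p = 4.7e-05). Ptgds, the lipocalin-type prostaglandin D synthase, was at 0 counts in the 3 immature libraries and in mature replicate 1, and at 5.00, 5.29 and 4.48 CPM in mature replicates 2 to 4. These are the libraries that held the heart muscle genes, whose part in the result was not tested. The constitutive synthases Ptges2 (-0.85, edgeR adjusted p = 3.2e-04) and Ptges3 (-0.11, adjusted p = 0.359) did not pass both criteria.

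Receptors for prostaglandin E2 went in opposite directions. Ptger2, the EP2 receptor, stood at 53.0, 48.3 and 47.1 CPM in immature and 5.43, 5.27, 7.02 and 5.42 CPM in mature cells. Ptger4, the EP4 receptor, stood at 42.9, 35.4 and 34.0 CPM in immature and 149, 142, 141 and 139 CPM in mature cells. Per length, Ptger2 was the higher in immature cells, at 7.76 to 9.04 FPKM against 4.37 to 5.72 for Ptger4. In mature cells Ptger4 was the higher, at 18.7 to 21.6 FPKM against 0.99 to 1.19 for Ptger2. Ptger2 fell with a log2 fold change of -3.10 ± 0.12 and Ptger4 rose by 1.93 ± 0.10 (SE; edgeR adjusted p of 4.9e-07 and 1.4e-06).

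Ptgir, the prostacyclin receptor, fell from 126 to 145 CPM to 22.1 to 30.3 CPM, with a log2 fold change of -2.36 ± 0.12 (edgeR adjusted p = 1.4e-06). Ptger1 (0.48, adjusted p = 0.122) and Ptger3 (-2.02 at under 1.2 CPM, adjusted p = 0.074) did not pass. Of the breakdown and transport genes, Ptgr1, a prostaglandin and leukotriene B4 reductase, fell by 1.67 on the log2 scale and Abcc4, an exporter of prostaglandins, by 1.40 (edgeR adjusted p of 3.7e-05 and 6.6e-05). No gene of that group was called higher.

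Downstream of the leukotriene enzymes, 8 of 12 tested genes passed, which is 66.7% beside 23.1% of all genes, and 7 of them were lower, where 9.95% of all genes were. Mgst1 and Mgst2, microsomal glutathione transferases of the same family as Ltc4s, fell, with log2 fold changes of -1.96 and -1.92 (edgeR adjusted p of 1.7e-05 and 4.2e-05), in contrast to Ltc4s, while Mgst3 did not pass (-0.07). Dpep2, a dipeptidase that converts leukotriene D4 to E4, fell from 215 to 220 CPM to 43.2 to 57.0 CPM, with a log2 fold change of -2.11 ± 0.11 (edgeR adjusted p = 1.2e-06). A second gene ID of that symbol held few counts and was not used.

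The other falling genes of the group were Cyp4f18 (-2.88), a leukotriene B4 hydroxylase, Cyp4f16 (-1.96), Ggt5 (-2.31), which takes leukotriene C4 to D4, and Dpep3 (-1.75). Dpep1, at 0 to 0.0719 CPM in immature and 0 to 1.72 CPM in mature libraries, was called higher although the groups overlapped. It was at 0 in mature replicate 1 and at 1.72, 1.36 and 0.512 CPM in replicates 2 to 4, which held the heart muscle genes, whose part in the result was not tested. Abcc1, the exporter of leukotriene C4, was at 111 to 124 CPM in immature and 112 to 173 CPM in mature cells and did not pass (0.38 ± 0.15, edgeR adjusted p = 0.060).

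Among leukotriene and lipid mediator receptors, 4 of 7 tested genes were lower (57.1%, beside 9.95% of all genes) and none was called higher. Ltb4r1, the high-affinity receptor for leukotriene B4, stood at 164, 161 and 165 CPM in immature and 34.9, 35.3, 61.6 and 44.3 CPM in mature cells. Every mature library was below every immature one. Its log2 fold change was -1.89 ± 0.19 (edgeR adjusted p = 6.0e-05).

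Cysltr1, a receptor for cysteinyl leukotrienes, fell from 37.0 to 44.9 CPM to 7.24 to 12.8 CPM, with a log2 fold change of -2.08 ± 0.18 (edgeR adjusted p = 2.8e-05). Cysltr2, at 3.39 to 3.83 and 1.47 to 2.16 CPM, passed the adjusted p and narrowly missed the fold (-0.99, adjusted p = 0.0042). Gpr17 and Oxgr1, also on the list, were too low to be tested.

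Cmklr1, a chemerin receptor, fell by 2.65 on the log2 scale (edgeR adjusted p = 1.2e-06). Fpr2, a formyl peptide and lipoxin receptor, fell by 1.09 (edgeR adjusted p = 0.032), but it did not pass without mature replicate 1 (-0.82), nor without any single immature replicate (adjusted p of 0.071 to 0.092). Of the other lipoxygenases, Alox12e was at 0.449 to 0.593 CPM in immature libraries and at 0 counts in the 4 mature ones, and Alox12 did not pass. Ephx2, soluble epoxide hydrolase, stood at 0.511, 0 and 0 CPM in immature and 1.29, 8.99, 8.81 and 6.72 CPM in mature cells. It was higher (log2 fold change 5.24 ± 1.23, edgeR adjusted p = 0.0077), and lowest among mature libraries in replicate 1 as the heart muscle genes were. Without immature replicate 1 the remaining immature libraries were at 0, so the fitted 11.6 on the log2 scale is not a measured fold.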

How the data were processed

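For each gene the authors deposited raw whole-number counts and FPKM (scaled for gene length and library size, given to 2 decimals). The submitters' processing notes name cutadapt 1.9, HISAT2 2.2.1, StringTie 2.1.6, DESeq2, edgeR and the build mm9. The counting program, annotation and strand setting are not given in the sources used here. Of 28588 gene IDs shared with GENCODE M21, 24940 (87.2%) have identical GRCm38 coordinates, so coordinates are given in GRCm38. The labels supplied the groups and replicate numbers.

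All 7 libraries and the whole table entered 1 fit in edgeR 4.0.16 (R 4.3.3), which comprised filterByExpr, TMM scaling, the quasi-likelihood test on counts and Benjamini-Hochberg adjustment. CPM values are TMM-scaled. The criteria on fold and adjusted p are those of the paper, which does not name its test. Standard errors were derived from the F statistic (absolute log2 fold change over its square root). The 95% intervals came from the t distribution with the test's total degrees of freedom (residual plus prior). Ratios used log2(FPKM + 0.1) and a two-sided exact permutation test. The genes, the pathway list and the marker lists were chosen with earlier results of these data known. All 10 enzymes are named, and of the pathway list the 20 genes of largest fold among 21 past the criteria with no overlap between groups and a mean CPM of at least 1 in the higher group. Receptors that passed the filter may be named as well. Pathway genes outside this rule (Pla2g7, Ptgds, Dpep1, Alox12e, Alox12, Ptges2, Ptges3, Mgst3, Abcc1, and the untested receptors Gpr17 and Oxgr1) were named after their values were seen.

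Alternatives were DESeq2 1.42.0, limma 3.58.1 on FPKM, other normalizations and filters, offsets on gene length, the replicate number as a block and libraries left out. In simulated counts with 200 genes changed 4-fold, edgeR recovered 200 with 0 false calls among 17134 genes tested, DESeq2 200, and limma 149 of 170. The simulation gave all genes the same dispersion, changed only well-counted genes and held no gene length trend or heart muscle difference between libraries. It therefore does not test calls near the fold criterion or the effect of those library differences. Motif searches and tables were run in Python 3.11.15 (pandas 2.3.3; numpy 2.4.6; scipy 1.17.1), and plots in matplotlib 3.10.9. Total counts of 54846746 to 67973086 set the precision, and reads without molecular identifiers are not independent molecules. No replicate pair agreed within counting noise (median chi-square per gene of 3.83 to 25.6).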

Additional observations from a re-analysis of the deposited data

Results flagged for a closer look

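Of 34 values checked within the mature group, 4 had a library whose gap to the nearest other library, as a share of the whole range, was above Dixon's 95% critical value for 4 samples, where chance gives about 1.7. For Hpgds the share was 0.981, because mature replicate 4 lay at 0.784 CPM while the others lay at 3.03 to 3.07. For Alox15 it was 0.838, with mature replicate 4 the highest at 5.09 CPM. For Ptger2 it was 0.913, with mature replicate 3 the highest at 7.02 CPM. For Mgst1 it was 0.843, with mature replicate 3 the highest at 43.2 CPM. Alox15, Ptger2 and Mgst1 passed the criteria in each fit that left out a library, and Hpgds passed in none.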

How the results depend on the processing

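The 6 enzymes past the criteria were the same under DESeq2, RLE normalization, both other count filters, gene length offsets and each library left out (6 to 6). Lta4h alone was lost under upper-quartile normalization and both limma fits, which left 5. Other pathway genes past the criteria numbered 22 to 26 with a library left out, and 15 under limma on log2(FPKM + 1). Over all genes, 4037 passed, 3646 to 4052 with a library left out, 2413 with a mean FPKM of at least 1, 1768 and 2561 under limma on log2(FPKM + 1) and log2(FPKM + 0.1), and 8053 without the fold criterion. Alox5 turned in sign under upper-quartile normalization (0.031), both limma fits (0.021 and 0.022) and without mature replicates 1 and 3 (0.041), and Ptges with the replicate block and length offsets (-0.039); neither was past the test in any of these, and the cause was not tested.

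Same-numbered libraries did not deviate together (correlations -0.00114 to 0.0285). Traits of single libraries, such as the gene length trend, also enter these correlations. They therefore cannot settle whether same-numbered libraries share an animal or culture, which the labels do not give. With the replicate block, 6 enzymes, 24 pathway genes and 3616 genes in all passed. With the block and length offsets, 1780 genes were higher and 2037 lower, against 2300 and 1737. Length offsets moved the median of all genes tested by -0.15 and upper-quartile normalization by 0.11 on the log2 scale. Under DESeq2 and no filter the median was 0.13 and 0.12 higher. Those medians were taken over more genes (21705 and 27808, against 17461), so they are not shifts of the same genes. Ptgs2 ranged from 0.15 to 0.82 and did not pass in any alternative. Hpgds was not tested under limma or a mean FPKM of at least 1, its level being too low. Without the fold criterion, 32 pathway genes passed. The 4 log2 ratios kept their sign with other pseudocounts, with counts and with each library left out, between 2.02 and 2.48 for Ptgs2 to Ptgs1, 0.38 and 1.17 for Ptges to Hpgds, -1.93 and -1.70 for Alox5ap to Alox5, and -3.11 and -2.82 for Lta4h to Ltc4s.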
